A study of Mus musculus with 10 samples.

Results

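Nucleotides released from cells act on receptors at the cell surface, and 8 genes of this system were followed here in cultured mouse leukemia stem cell lines. They are 4 G protein-coupled P2Y receptors (P2ry2, P2ry6, P2ry13 and P2ry14), 2 ATP-gated P2X channels (P2rx4 and P2rx7) and 2 ectoenzymes (Entpd1 and Nt5e). The genes were given as a list and found through the annotation of the array, which held 17 probe sets for them among the 45101 on the array and 18194 named genes. They were picked from results of these same arrays, the level of P2ry6 after a Dot1l inhibitor among them, and which values led to each of the others is not recorded. Their differences between groups are therefore described with their standard errors and with the calls of a fit across all genes, and no p-value is given for them.

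The series holds 10 samples in 4 groups, each measured once on an Affymetrix Mouse Genome 430 2.0 array. RH-RAS lines carry mutant DNMT3A (R882H), a DNA methyltransferase, and mutant NRAS (G12D), and lines 1 to 4, each derived independently, were profiled without inhibitor. Lines 1 and 3 were profiled again after 4 days with 1 µM SGC0946, an inhibitor of the histone methyltransferase Dot1l. The remaining groups are 1 line with the MLL-AF9 fusion and 3 lines with the NUP98-JARID1A fusion, and all lines grew in Opti-MEM with serum and stem cell factor. The sources used here give neither a vehicle for the untreated cultures nor whether the NUP98-JARID1A lines were derived separately. The p-values for those lines thus reflect the spread among the samples at hand, which may be technical.

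In blood cells, ATP and UTP leaving stressed or activated cells are sensed by P2Y and P2X receptors. Entpd1, the surface enzyme CD39, splits ATP and ADP to AMP, and Nt5e, the surface enzyme CD73, turns AMP into adenosine, which has receptors of its own. P2rx7 on monocytes and macrophages is known for opening to high ATP and triggering the inflammasome, and P2ry14, a receptor for UDP-glucose, is known from blood stem and progenitor cells.

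Values are log2 intensities, on which a difference of 1 is a 2-fold difference, and array medians lay between 5.72 and 5.82. Where any array of the lower group lay at or below its array median, a signal that may not be above background, the difference is given on the log2 scale with no fold. The 6 progenitor markers measured (Kit, Cd34, Flt3, Hoxa9, Meis1 and Ptprc) were above the array median on all 10 arrays, and 4 of them (Kit, Cd34, Hoxa9 and Meis1) fell under SGC0946. Of all genes tested 6.84% rose and 5.12% fell under SGC0946. Of 7 monocyte and macrophage markers measured, all 7 rose under SGC0946, 6 of them with the cell line as a block. Their mean level ran from 7.0 to 8.71 in untreated RH-RAS lines, with line 4 the highest, from 11.23 to 11.34 in treated lines, was 8.28 in MLL-AF9, and ran from 9.22 to 10.30 in NUP98-JARID1A lines. Mrc1 and Adgre1 were at or below the array median on every untreated RH-RAS array. All 7 neutrophil markers measured were below it there too, at a mean of 4.77 to 4.94, and 6 stayed below it in treated lines, against a mean of 10.77 in MLL-AF9 and 10.00 to 13.07 in NUP98-JARID1A lines. The T and NK cell markers had a mean of 6.33 to 7.65 in untreated and 5.20 to 5.28 in treated RH-RAS lines, and 3 of 5 fell (Cd3g, Gzma and Gata3). Of the other marker lists tested, 1 of 3 mast cell and basophil genes fell under SGC0946 (Cpa3), though not with the cell line as a block. Of 2 B cell, 2 erythroid, 4 megakaryocyte and 2 fibroblast genes, 0 passed. In NUP98-JARID1A against RH-RAS lines, 32.5% of all genes tested were higher and 18.5% lower. There 4 monocyte and macrophage markers were higher and 1 lower, and all 7 neutrophil markers were higher. Of the 6 progenitor markers Kit (1.68 ± 0.19) was higher, Flt3 (−2.07 ± 0.25) and Ptprc (−0.37 ± 0.11) were lower, and 3 did not pass. Of the T and NK cell markers Gzma (−5.26 ± 0.58) and Cd3g (−3.67 ± 0.69) were lower and Gata3 (1.59 ± 0.21) higher, with limma adjusted p = 0.000338, 0.00377 and 0.000679. Gzma and Cd3g were tested because of their level in untreated RH-RAS lines, as neither was above the array median on any array of NUP98-JARID1A lines. There 1 of 2 B cell genes (Cd79b, −1.97 ± 0.37) and 1 of 2 erythroid genes were lower. Of 3 mast cell and basophil genes 2 (Mcpt8, 4.35 ± 0.57, and Hdc, 2.82 ± 0.48) and of 4 megakaryocyte genes 2 were higher, and 0 of 2 fibroblast genes passed. No untreated RH-RAS array was above its median for the 7 neutrophil markers, Adgre1, Mcpt8 or the megakaryocyte gene Pf4. These were tested because of their level in the other groups. The part of these cell type differences in the results that follow was not tested, and fewer cells of a type cannot be told apart from less RNA per cell.

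P2ry6, a receptor for UDP, was the member with the widest range. Its level was 5.47, 6.10, 5.89 and 7.14 in untreated RH-RAS lines 1 to 4, and 10.95 and 11.18 in treated lines 1 and 3. Neither treated array came near the untreated ones, among which line 4 was the highest. The gene rose by 5.39 ± 0.65 (SE, n = 2 treated and 2 untreated arrays), with changes of 5.48 in line 1 and 5.29 in line 3. Untreated line 1 was below the array median and line 3 just above it. In NUP98-JARID1A lines 1 to 3 the level was 6.95, 8.42 and 9.08, so that line 1 fell within the RH-RAS range and the others above it. Their mean was higher than that of the 4 RH-RAS lines by 2.00 ± 0.56 (SE, n = 3 and 4), and this call was lost without any of 4 single arrays (RH-RAS line 1 or 3, NUP98-JARID1A line 2 or 3), when the difference was 1.53 to 1.91. The MLL-AF9 array, at 7.07, lay inside the RH-RAS range.

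P2ry2, a receptor for ATP and UTP and the next coding gene to P2ry6 on chromosome 7, was ordered otherwise. It was highest in NUP98-JARID1A lines, at 8.12, 8.48 and 8.43. The MLL-AF9 array followed at 7.17, the treated RH-RAS arrays were at 6.60 and 6.59, and the untreated lines were at 5.73, 5.60, 5.54 and 6.11. None of these 4 groups overlapped. Under SGC0946 the gene rose by 0.96 ± 0.19, and in NUP98-JARID1A lines it was higher by 2.60 ± 0.16. Only 1 of the 4 untreated RH-RAS arrays was above the array median for P2ry2, so the gene was tested because of its level in the other groups.

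P2ry13, a receptor for ADP, was at 7.26, 7.0, 7.19 and 7.70 in untreated RH-RAS lines and at 9.13 and 9.21 in the treated ones. It rose by 1.94 ± 0.33, or 3.84-fold, and the groups did not overlap. In NUP98-JARID1A lines it was at 6.43, 7.31 and 7.25, a difference of −0.29 ± 0.25 that did not pass, and the ranges overlapped. The MLL-AF9 array was the lowest of all, at 6.21.

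P2ry14 followed another order, although it lies close to P2ry13 on chromosome 3. Its level was 9.32, 9.38, 9.52 and 9.74 in untreated and 9.65 and 9.70 in treated RH-RAS lines, which overlapped, and the change of 0.25 ± 0.29 did not pass. In NUP98-JARID1A lines it was at 8.25, 7.39 and 7.42, below every RH-RAS array, with a difference of −1.81 ± 0.22, or 3.49-fold. The single MLL-AF9 array was at 5.40, below the array median and 4.09 under the RH-RAS mean. By the probe set that stands for each gene, P2ry14 was the only member at least 2 on the log2 scale from the RH-RAS mean and outside the range of the 4 lines. Of all genes tested 4.35% passed that bound, 2.62% as higher and 1.73% as lower.

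**Figure D1:**
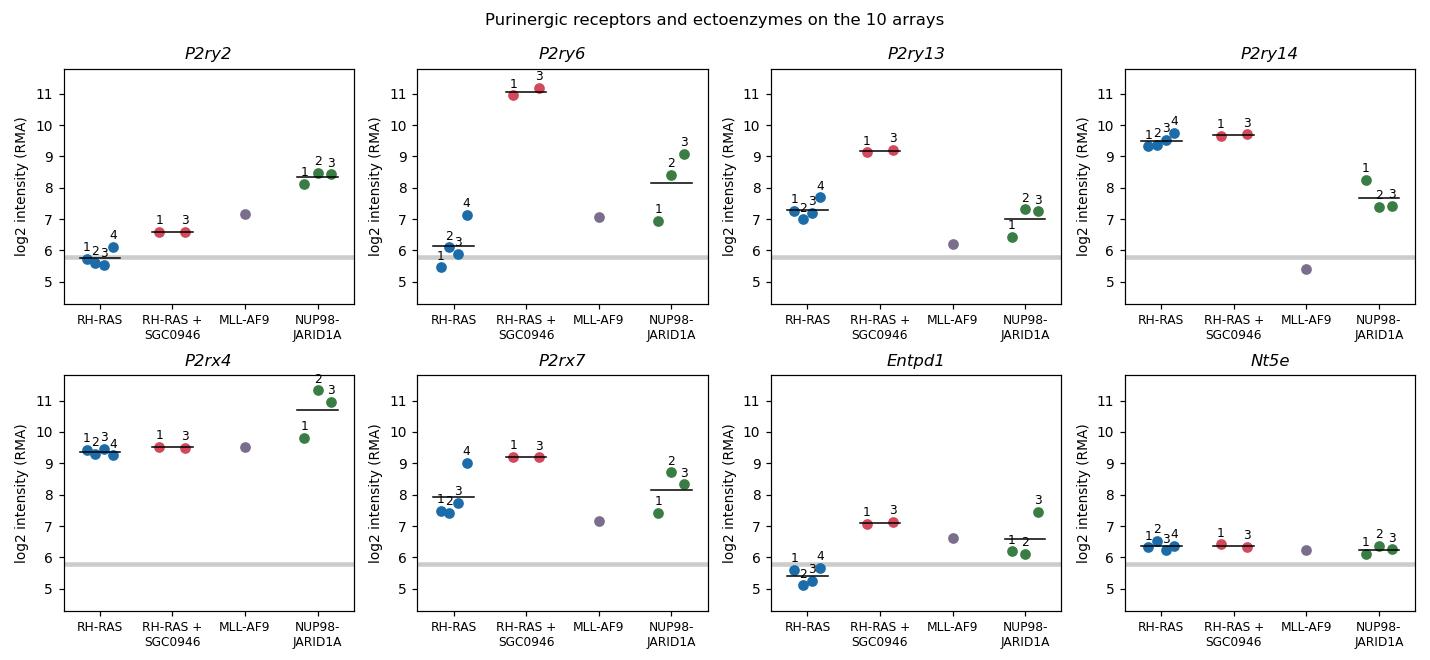
Each panel plots the log2 intensity (RMA) of 1 gene on all 10 arrays, by the probe set with the highest mean. Points are arrays labelled by line number, horizontal lines are group means and the grey band spans the array medians, 5.72 to 5.82. The treated arrays of P2ry6 sit at 10.95 and 11.18, above all others, P2ry2 is highest in NUP98-JARID1A lines, and P2ry14 is lowest on the MLL-AF9 array.

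The order of coding genes in RefSeq (GRCm38.p6) places Med12l, Gpr171, P2ry14, P2ry13 and P2ry12 in this order on chromosome 3. P2ry12, the ADP receptor of platelets and microglia, rose under SGC0946 by 2.05 ± 0.35 (limma adjusted p = 0.0137), from 5.47 and 6.07 to 7.93 and 7.71. P2ry13 and P2ry12, adjacent at one end, were thus the pair that rose, while P2ry14, Gpr171 (−0.20 ± 0.60, adjusted p = 0.889) and the Mediator subunit gene Med12l (−0.88 ± 0.29, adjusted p = 0.0995) did not pass. In NUP98-JARID1A lines P2ry12 was lower by −1.47 ± 0.27, Gpr171 by −2.21 ± 0.46 and Med12l by −1.89 ± 0.26 (adjusted p = 0.00336, 0.00583 and 0.000962). These 3 genes and P2ry14 were lower, and P2ry13 was the one of these genes that did not pass. That it differed from the rest was not tested. P2ry12 was above the array median on no array of NUP98-JARID1A lines, so it was tested because of its level in RH-RAS lines.

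The windows before the starts of P2ry13 and P2ry14 are shown because these near neighbours moved apart, and the window of Entpd1 because it shares a motif with them. They come from RefSeq (GRCm38.p6), where 7 of the 8 members were matched, P2ry6 not. Each is the 250 bases before a start, 5′ to 3′ on the minus strand for P2ry13 and P2ry14 and on the plus strand for Entpd1. Capitals mark GAGGAAG, the core of many binding sites of the myeloid factor PU.1.
P2ry13, chr3:59210883-59211132: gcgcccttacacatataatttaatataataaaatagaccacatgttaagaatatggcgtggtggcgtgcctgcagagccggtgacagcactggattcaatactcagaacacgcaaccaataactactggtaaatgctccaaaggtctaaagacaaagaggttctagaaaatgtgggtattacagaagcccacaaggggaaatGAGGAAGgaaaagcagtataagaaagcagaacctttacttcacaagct
P2ry14, the outermost of 4 starts, chr3:59153493-59153742: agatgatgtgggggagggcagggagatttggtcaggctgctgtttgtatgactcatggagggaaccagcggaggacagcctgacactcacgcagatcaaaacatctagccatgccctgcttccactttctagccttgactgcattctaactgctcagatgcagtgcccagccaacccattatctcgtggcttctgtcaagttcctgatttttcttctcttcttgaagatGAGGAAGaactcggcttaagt
Entpd1, the second of 2 starts, chr19:40659520-40659769: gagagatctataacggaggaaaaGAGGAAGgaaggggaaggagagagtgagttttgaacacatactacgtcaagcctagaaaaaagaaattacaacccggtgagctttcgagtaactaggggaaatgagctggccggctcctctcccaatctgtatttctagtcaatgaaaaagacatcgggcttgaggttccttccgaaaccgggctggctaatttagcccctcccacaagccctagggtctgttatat
The motif was chosen after the sequences were seen. On either strand it stood in 3 of the 13 windows of the members, those printed, and in 10.6% of the 32851 windows of the table. The AP-1 motif TGANTCA, no match of which overlaps a match of GAGGAAG in these windows, was in 3 of the 13 windows, among them the P2ry14 window printed here, and in 6.75% of all. P2ry13 and P2ry14 both hold GAGGAAG, beginning 48 and 21 bases before the start, although their levels differed across the groups. A match of letters is a description and not a binding site.

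**Figure D2:**
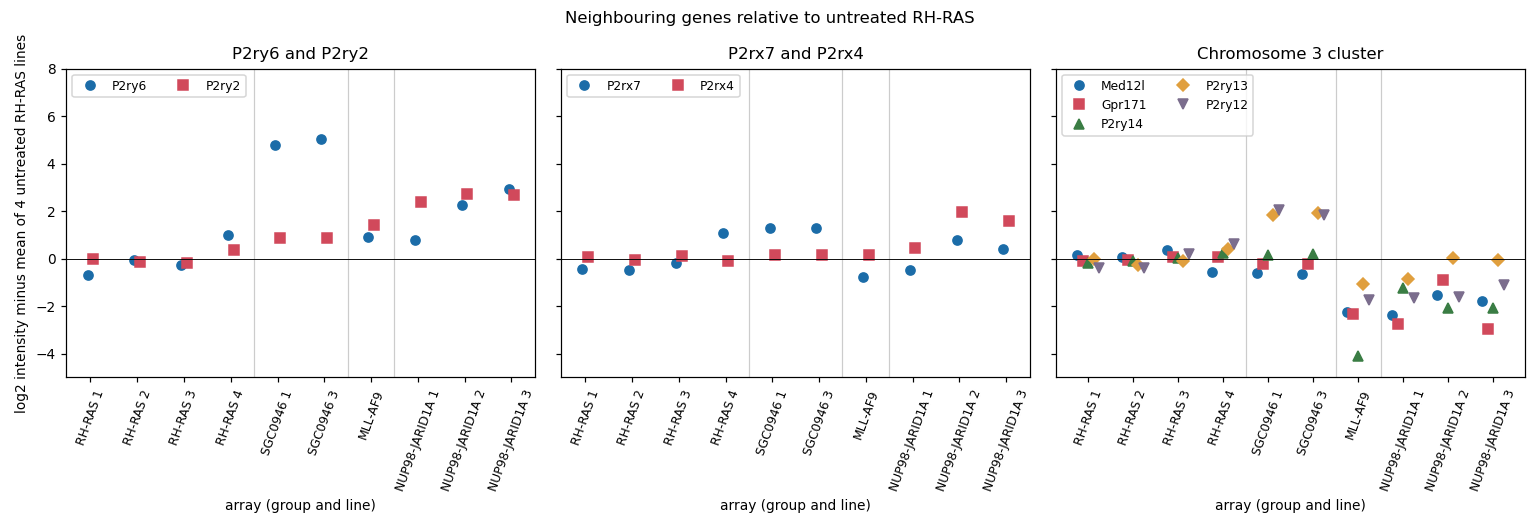
Log2 intensity minus the mean of the 4 untreated RH-RAS lines is plotted for each of the 10 arrays, for neighbouring genes on chromosomes 7, 5 and 3. On chromosome 3, P2ry13 and P2ry12 lie above 0 in both SGC0946 arrays while P2ry14 and Gpr171 stay near it, and all but P2ry13, which did not pass, are lower in NUP98-JARID1A lines.

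Of the channels, P2rx4, which opens to ATP and is common in macrophages and lysosomes, was at 9.44, 9.31, 9.47 and 9.25 in untreated and 9.53 and 9.50 in treated RH-RAS lines. The change of 0.06 ± 0.42 did not pass, and its SE was 0.08 in the fit of RH-RAS arrays only. In NUP98-JARID1A lines it was at 9.81, 11.33 and 10.97, all above the other 7 arrays, and higher than in RH-RAS lines by 1.34 ± 0.32, or 2.52-fold. Line 1 stood closer to RH-RAS than the other NUP98-JARID1A lines did. The MLL-AF9 array, at 9.52, was within the span of the treated arrays by this probe set. By another, 1452527_a_at, it was the lowest array, at 8.47 against 9.04 to 9.23 in untreated RH-RAS lines. Of the other 3 probe sets of P2rx4, 1452527_a_at (1.15 ± 0.30) and 1441772_at (0.63 ± 0.14) were also higher in NUP98-JARID1A lines, while 1446429_at was above the array median on 1 array and was not tested.

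P2rx7 was at 7.49, 7.43, 7.75 and 9.01 in untreated lines 1 to 4 and at 9.22 and 9.19 in treated lines 1 and 3. Line 4 thus lay 1.45 above lines 1 to 3, just under the treated arrays. The change in lines 1 and 3 was 1.59 ± 0.55, or 3.00-fold, with 1.73 in line 1 and 1.45 in line 3, and it did not pass. The same change passed in the fit without line 4. NUP98-JARID1A lines, at 7.43, 8.72 and 8.33, overlapped the RH-RAS lines (0.24 ± 0.45), and the MLL-AF9 array was the lowest, at 7.16. The 3 probe sets gave changes of unlike size under SGC0946, at 1.59 for 1439787_at, 2.01 ± 0.70 for 1419853_a_at and 0.97 ± 0.29 for 1422218_at, and none passed. For the last, NUP98-JARID1A lines were lower by −0.79 ± 0.23, which passed, against 0.24 and 0.09 for the others, so the direction of P2rx7 in those lines depends on the probe set.

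Of the enzymes, Entpd1 was at 5.60, 5.11, 5.25 and 5.67 in untreated RH-RAS lines, all below the array median, and at 7.08 and 7.13 in the treated lines. It rose by 1.68 ± 0.43, and the groups did not overlap. Like P2ry2, the gene was tested because of its level in the other groups. The call was narrow and was lost with the cell line as a block, without untreated line 4 and with no filter on low values, at the same change. It was lost too with the mean of its probe sets, which changed by 1.10. NUP98-JARID1A lines were at 6.19, 6.11 and 7.45, above every untreated RH-RAS line, with a difference of 1.18 ± 0.33, which did not pass without RH-RAS line 2 (1.08) or 3 (1.13). The MLL-AF9 array was at 6.61. The other probe sets, 1450939_at and 1453586_at, gave changes of 0.68 ± 0.25 and 0.93 ± 0.41 under SGC0946, the same direction with smaller size, and lay lower on the scale.

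Nt5e gave different pictures by probe set. The probe set with the highest mean, 1459023_at, stayed between 6.11 and 6.52 on all 10 arrays, and 1422974_at between 6.04 and 6.70. The highest values of 1422974_at were on the MLL-AF9 array (6.70) and in NUP98-JARID1A line 3 (6.61). By that probe set untreated RH-RAS lines were at 6.14 to 6.24. The third, 1428547_at, was at 4.81, 4.62, 4.52 and 4.40 in untreated RH-RAS lines, 4.44 and 5.05 in treated ones, and 5.07, 4.82 and 7.32 in NUP98-JARID1A lines. On the MLL-AF9 array it was at 8.08, which is 3.50 above the RH-RAS mean, whose 4 arrays were all below the array median. High values of this probe set were thus seen in MLL-AF9 and NUP98-JARID1A line 3, and its difference between NUP98-JARID1A and RH-RAS lines, 1.15 ± 0.53, did not pass. A gene value taken from the brightest probe set shows none of this.

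**Figure D3:**
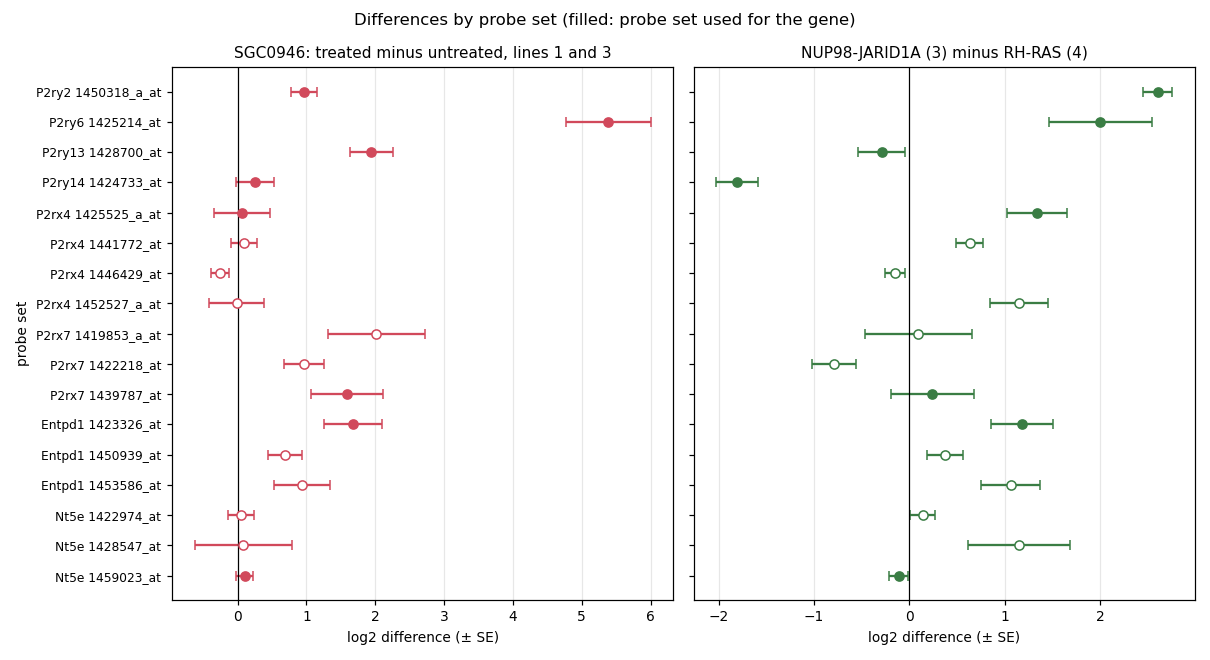
Differences on the log2 scale with their SE are drawn for all 17 probe sets, for SGC0946 in lines 1 and 3 on the left and for 3 NUP98-JARID1A against 4 RH-RAS lines on the right, and filled points mark the probe set used for the gene. The probe sets of P2rx4 and Entpd1 that passed the filter share their sign on the right, while those of P2rx7 and Nt5e lie on both sides of 0.

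Counted together, 4 of 8 members rose under SGC0946 (P2ry2, P2ry6, P2ry13 and Entpd1), 0 fell and 4 did not pass, where limma called 12% of all 11993 genes tested 6.84% as higher and 5.12% as lower. The median change of the members was 1.27, beside 0.02 for all genes tested. With the cell line as a block 3 rose and 0 fell, where 7.22% of all 11993 genes were called, 502 as higher and 364 as lower. The calls rest on 2 arrays an arm. Without untreated line 1 or treated line 3 no member passed, and without untreated line 3 or treated line 1 only P2ry6 did, with changes of 0.87 or more for the 4 genes in each case. Against RH-RAS, 4 members were higher in NUP98-JARID1A lines (P2ry2, P2ry6, P2rx4 and Entpd1), 1 was lower (P2ry14) and 3 did not pass, where 51.0% of all genes were called, 32.5% as higher and 18.5% as lower. With line number as a block 5 members were called, beside 41.2% of all genes. The count was 3 without RH-RAS line 3. The median difference was 0.71, beside 0.10 for all genes. Both comparisons share the untreated lines, and nothing is read from these counts, since the members were listed with results in view.

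For 5 members (P2ry2, P2ry6, P2ry13, P2rx7 and Entpd1) the level of untreated line 4 stood above lines 1 to 3 and below both treated arrays. It was intermediate in this way, up or down, for 25.1% of all genes tested. The distance from lines 1 to 3 was 1.45 for P2rx7, 1.32 for P2ry6, 0.55 for P2ry13, 0.48 for P2ry2 and 0.35 for Entpd1. All 7 monocyte and macrophage markers measured were intermediate in line 4 as well, where their mean was 8.71, the highest of the untreated lines; their part was not tested.

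Profiles centred on their own mean over the 10 arrays were compared by their mean absolute difference. Of the genes tested outside the members, those most like P2ry6 were Dab2 (0.32), Tgfbi (0.48), Cttnbp2nl (0.51), Rab3il1 (0.53) and Clec4a3 (0.54), where the median gene was at 1.66. Closest to P2ry2 were Tgfb1 (0.15), Mpp1 (0.16) and Gabarapl1 (0.17), and to P2ry13 Jun (0.19), Slfn5 (0.21) and Cds1 (0.23). P2ry14 was most like Camk1d (0.18), Etv5 (0.26) and Slc37a3 (0.27), where the median gene was at 1.22. For P2rx4 they were Slc39a4 (0.15), Slc26a11 (0.16) and Sap30l (0.16), for P2rx7 Rasa4 (0.22), Tnni2 (0.24) and Plekho1 (0.28), and for Entpd1 Selenop (0.20), Plbd1 (0.21) and Trim30a (0.22). Nt5e hardly varied by its brightest probe set, so that Gpc6, Cdk9 and Zfp112 (0.05 to 0.06) were close to it only in being flat.

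Other genes of the pathway came from a fixed list of 65, of which 56 were on the array and 46 were tested. Under SGC0946 11 rose, 5 fell and 30 did not pass, where 12% of all genes were called, with a median change of 0.27. With the cell line as a block 6 rose and 1 fell, beside 7.22% of all genes called. Without one of the 4 arrays of the contrast the calls fell to between 0 and 2 (2 without untreated line 1, 1 without untreated line 3 or treated line 1, 0 without treated line 3). In NUP98-JARID1A lines 18 were higher, 10 lower and 18 did not pass, where 51.0% of all genes were called, with a median of 0.31.

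Inflammasome genes, which act after P2rx7 opens, rose in 5 of 7 under SGC0946, where 6.84% of all genes tested rose. With the block 3 rose and 0 fell, where 7.22% of all 11993 genes were called, 502 as higher and 364 as lower. The adaptor Pycard was at 11.35 and 11.29 in untreated lines 1 and 3 and at 12.44 and 12.41 after treatment, a rise of 1.10 ± 0.11 (limma adjusted p = 0.0035). Nek7, a kinase that binds Nlrp3, rose by 1.14 ± 0.15 (adjusted p = 0.0061), and the protease Casp1 by 1.70 ± 0.34 (adjusted p = 0.0215). Nlrp3 itself (1.55 ± 0.38) and the cytokine Il18 (2.00 ± 0.44) rose too (adjusted p = 0.0393 and 0.0292), though not with the block (adjusted p = 0.0706 and 0.0596). Gsdmd, the pore-forming protein, and the cytokine Il1b were at 0.38 ± 0.13 and 0.78 ± 0.30 and did not pass. In NUP98-JARID1A lines 4 of the 7 were higher, Pycard by 1.33 ± 0.10, Casp1 by 1.35 ± 0.30, Gsdmd by 1.25 ± 0.10 and Il18 by 1.92 ± 0.34 (adjusted p at most 0.00761). Of all genes tested 32.5% were called higher in those lines.

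Among the remaining P2X channels the ATP-gated P2rx1 fell under SGC0946 by 1.17 ± 0.28 (limma adjusted p = 0.036, and 0.0645 with the block). It was higher in NUP98-JARID1A lines by 1.37 ± 0.24 (adjusted p = 0.00276), at 8.40, 8.42 and 8.95 against 6.62 to 7.53. P2rx6 was higher there by 0.53 ± 0.13 (adjusted p = 0.0111), P2rx3 (−1.74 ± 0.77) and P2rx5 did not pass, and P2rx2 was not above the array median on enough arrays to be tested. The ADP receptor P2ry1 did not pass in either comparison (−0.22 ± 0.32 and 0.24 ± 0.25), and P2ry4 was not tested.

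The list of P2Y-like receptors and chromosome 3 neighbours held 5 genes that were tested. These, Gpr34, Gpr171, Gpr174, P2ry10 and Med12l, were all lower in NUP98-JARID1A lines and all past the fold and lower on the MLL-AF9 array. Of all genes tested 18.5% were called lower in NUP98-JARID1A lines, and 1.73% were past the fold and lower on the MLL-AF9 array. The T and NK cell markers went several ways in NUP98-JARID1A lines. Gzma and Cd3g were lower, Gata3 was higher (1.59 ± 0.21), and Cd3e (−0.04) and Cd3d (0.03) did not pass. Their part was not tested. P2ry10, a receptor for lysophosphatidylserine, was at 7.42 to 8.04 in untreated RH-RAS lines and at 3.29, 3.50 and 3.61 in NUP98-JARID1A lines (−4.33 ± 0.17, limma adjusted p = 5.31e-06). Those low levels were below the array median, and P2ry10 was tested because of its level in RH-RAS lines. It fell under SGC0946 by 1.11 ± 0.21 (adjusted p = 0.0191). Gpr174 was lower in NUP98-JARID1A lines by −4.24 ± 0.37 (adjusted p = 0.000138). Gpr174 and Gpr34 were each above the array median on 1 array of those lines. Gpr34 was at 1.82 ± 0.52 under SGC0946, with changes of 1.77 in line 1 and 1.88 in line 3, and did not pass (adjusted p = 0.064). Of the adenosine receptors 1 of 4 was measured, Adora3, which did not pass in either comparison (0.47 ± 0.28 and 0.44 ± 0.22).

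The list of other ectonucleotidases and related enzymes, not all of them at the cell surface, held 7 genes that were tested. Bst1, an enzyme that acts on NAD outside the cell, rose under SGC0946 by 3.03 ± 0.40 (limma adjusted p = 0.0061), from 4.87 and 4.27 to 7.51 and 7.69. It was also higher in NUP98-JARID1A lines by 2.49 ± 0.36 (adjusted p = 0.00109). Entpd5, an enzyme of the endoplasmic reticulum, fell by 0.49 ± 0.13 (adjusted p = 0.0455, and 0.0811 with the block) and was lower in NUP98-JARID1A lines by −0.55 ± 0.09 (adjusted p = 0.00231). In those lines Entpd6 (1.32 ± 0.10), Entpd7 (0.87 ± 0.14), Enpp4 (2.88 ± 0.40) and Acpp (2.50 ± 0.83) were higher (adjusted p = 8.1e-05, 0.00183, 0.000899 and 0.0384). Acpp, an acid phosphatase that also takes AMP, was high in lines 1 and 3 (8.58 and 7.08) and not in line 2 (4.47). Bst1, Enpp4 and Acpp were at or below the array median on every untreated RH-RAS array. These genes were tested because of their level in the other groups. On the MLL-AF9 array Bst1, Enpp4 and Acpp were past the fold and higher, by 2.10, 3.60 and 3.19.

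Of 4 genes of nucleotide release tested, 1 fell under SGC0946, and of 7 genes of adenosine uptake and breakdown 2 rose. Of all genes tested 6.84% rose and 5.12% fell. Panx1, a channel through which ATP leaves cells, fell under SGC0946 by 0.95 ± 0.24 (limma adjusted p = 0.0435, and 0.0735 with the block) and was lower in NUP98-JARID1A lines by −0.61 ± 0.18 (adjusted p = 0.0246). Slc17a9, which loads ATP into vesicles, was higher in NUP98-JARID1A lines by 1.07 ± 0.14 (adjusted p = 0.000639). Dpp4, a surface peptidase, rose under SGC0946 by 0.80 ± 0.20 (adjusted p = 0.0402, and 0.0764 with the block). It was lower in NUP98-JARID1A lines by −4.15 ± 0.16 (adjusted p = 5.13e-06), at 4.43, 3.82 and 4.27 against 8.22 to 8.53. Those low levels were below the array median, and Dpp4 was tested because of its level in RH-RAS lines. The nucleoside transporter Slc29a3 rose by 0.93 ± 0.24 (adjusted p = 0.0475, and 0.0885 with the block) and was higher in NUP98-JARID1A lines by 1.47 ± 0.19 (adjusted p = 0.000625). There Slc29a1 was also higher (0.51 ± 0.14) and the adenosine kinase Adk lower (−0.88 ± 0.14), with adjusted p = 0.0202 and 0.00167. Pnp, a phosphorylase that splits inosine, was at 0.94 ± 0.25 under SGC0946 and did not pass (adjusted p = 0.0519).

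Among G proteins and phospholipases C of P2Y receptors, 2 of 9 tested rose and 1 fell under SGC0946, beside 6.84% and 5.12% of all genes. Gnai2, an alpha subunit of the inhibitory class, rose by 0.68 ± 0.12 (limma adjusted p = 0.0137), and Gna15, a subunit of the Gq class found in blood cells, by 1.51 ± 0.36 (adjusted p = 0.0363, and 0.0696 with the block). Plcb4 fell by 1.72 ± 0.43 (adjusted p = 0.0425, and 0.056 with the block). In NUP98-JARID1A lines Gna15 was higher by 2.20 ± 0.28 and Gnai2 by 0.53 ± 0.09 (adjusted p = 0.000651 and 0.00248), and Gnaq (0.43 ± 0.12) and Plcb3 (0.31 ± 0.10) were higher as well (adjusted p = 0.0227 and 0.0291).

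**Figure D4:**
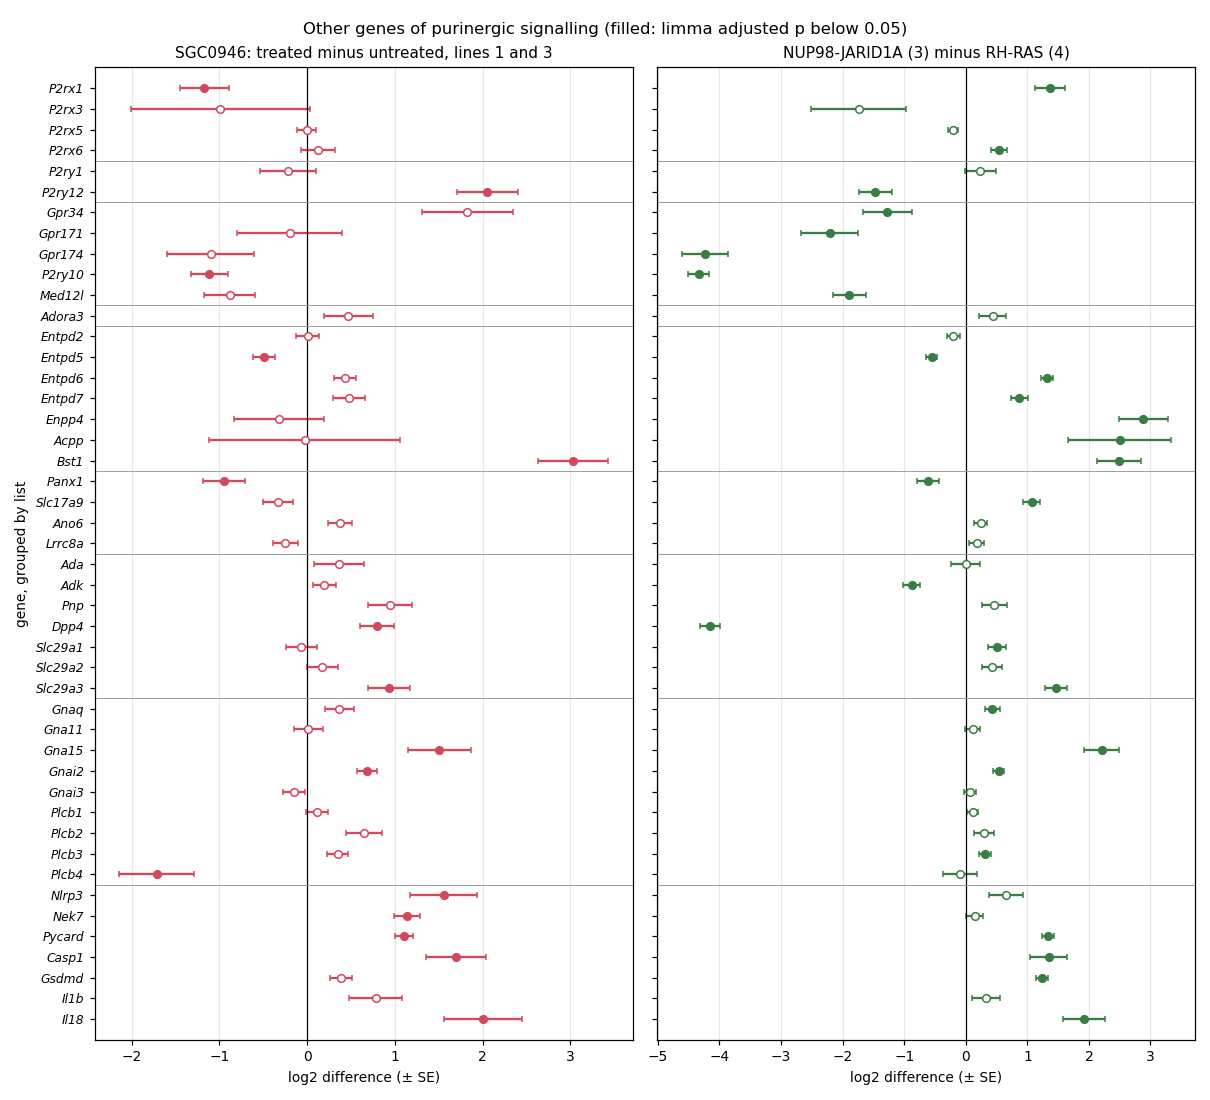
Differences on the log2 scale with their SE are drawn for the 46 other purinergic genes tested, under SGC0946 on the left and in NUP98-JARID1A against RH-RAS lines on the right, with lines between the gene lists and filled points for limma adjusted p below 0.05. Bst1 and P2ry12 rise most on the left, and P2ry10, Gpr174 and Dpp4 lie below −4 on the right.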

How the data were processed

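Total RNA of 10 cultured cell samples was labelled with biotin and hybridised to 1 array each, per the labels' protocols. The authors deposited RMA values, log2 intensity for each probe set, per the submitters' processing notes, with the version not given in the sources used here. Array minima lay between 2.21 and 2.34, maxima between 14.7 and 14.8, and sorted columns differed by at most 0.163, so the values were used as deposited. They hold no detection calls, and precision is limited by how many arrays there are.

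Of 45101 probe sets, 34958 had 1 gene symbol, 932 several and 9211 were not listed in the annotation. None of those with several symbols named a member. The probe set with the highest mean stood for its gene, and every probe set of a member is given. Testing required a value above the array median on 2 or more arrays, which left 11993 of 18194 genes and all 8 members.

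Fits used limma 3.58.1 in R 4.3.3, with Benjamini-Hochberg adjustment over all genes tested and a threshold of 0.05. The SGC0946 contrast was treated minus untreated lines 1 and 3 in a fit of all 10 arrays with 5 coefficients, where untreated lines 2 and 4 had their own. NUP98-JARID1A minus RH-RAS was fitted on the 8 arrays without inhibitor. Each SE reflects the spread within all groups of its fit, not only within the arrays contrasted. MLL-AF9 was not tested. Equal line numbers mark the same RH-RAS cell line (deviations correlated at 0.29), so the line as a block is given where it changes a call. The scripts were tested on simulated data.

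The members, gene lists and tests were chosen with earlier results of these data known. Named genes are the members, other purinergic genes past the threshold in either fit or with the largest differences of their list, the 5 genes most like P2ry6 and the 3 most like each other member, and markers with their list. Alternatives were the filter, the probe set rule, median subtraction, the prior, the block, the arrays fitted, the control and leaving out each array.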

Additional observations from a re-analysis of the deposited data

Results flagged for a closer look

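Under SGC0946 the Nt5e probe set 1428547_at was lower by −0.37 in line 1 and higher by 0.53 in line 3. The changes were in opposite directions and differed by 0.90, and with 1 array on each side this difference was not tested. No sample of the 4 untreated RH-RAS lines stood apart from the others in any of the 17 probe sets by Dixon's test, which flags about 1 in 20 groups by chance.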

How the results depend on the processing

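With the cell line as a block (replicate block), 866 genes and 7 other purinergic genes were called under SGC0946, 860 of the genes being among the 1434 called without it. A fit of RH-RAS arrays only called 2745 genes and 25 other purinergic genes. With every probe set on its own, 2237 probe sets were called under SGC0946 and 12828 between NUP98-JARID1A and RH-RAS lines, from more features tested. Leaving out 1 array gave 28 to 1482 genes, 0 to 4 members and 0 to 14 other purinergic genes under SGC0946. For NUP98-JARID1A it gave 3 to 5 members. At a bound of 1 on the log2 scale, 4 members were past it on the MLL-AF9 array. The sign turned for P2rx4 under SGC0946 with the mean of its probe sets (−0.029) or with 1452527_a_at (−0.015). In NUP98-JARID1A lines it turned for P2rx7 with the mean of its probe sets (−0.15) and with 1422218_at (−0.79), and the value ran from −0.038 to 0.61 as arrays were left out. For Nt5e it turned with the mean (0.39), 1422974_at (0.14) and 1428547_at (1.15). None had passed the test as reported for the gene, 1422218_at passed on its own, and the cause was not tested. RH-RAS and NUP98-JARID1A lines share only numbers (deviations correlated at −0.05, 0.03 and 0.03), and the block by number left 5 members and 26 other purinergic genes called. Signals near the array median limit what Entpd1, P2ry2, P2ry6 and Nt5e can show.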
